A study of Rattus norvegicus with 20 samples.

Results

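Coculture of rat subplate neurons with a cortical feeder layer for 24 h was compared with culture for the same 24 h without feeder cells. The comparison took the 10 arrays that the labels give this time, 5 cocultured and 5 control, of 20 arrays in the series, and was made across all genes measured. Cocultured and control coverslips both carried neurons from the posterior neocortex of rat embryos at embryonic day 17, held back on a dish by an anti-p75 antibody, which binds a receptor of neurotrophins, and grown without serum in Neurobasal with B27 and chondroitin sulfate A. The labels give no rat strain, sex or litter. Cocultured coverslips lay above a dense layer of the cells that had not adhered in the same panning, 650000 per well, and wax dots kept the layers apart. Control coverslips lay above wells that held wax dots and medium but no cells. RNA came from the coverslips alone, generally 6 pooled per condition, and 100 ng of it was amplified through 2 rounds before hybridisation to Affymetrix rat arrays. The labels do not say how pure the adherent cells were.

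Subplate neurons are among the first cortical neurons to be born, lie below the cortical plate, receive early thalamic input and largely disappear after birth. In neurons, synaptic and membrane activity raises calcium and cAMP, and within minutes to hours this switches on immediate-early transcription factors and then effector genes such as neurotrophins, phosphatases and secretory peptides. Cells of the developing cortex also pass signals through the medium, among them lipoproteins, growth factors and matrix proteins that act on synapse formation. The authors' design placed the 24 h arrays between the presumed time of immediate-early transcription and the rise of synapse density that followed.

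Each value is a ratio, with the median over all 20 arrays set to 1 for every probe set, and gives no order of level between genes. Changes are log2 differences, coculture minus control, with the standard error (SE) of a limma fit to the group means of all 20 arrays and p-values adjusted by Benjamini-Hochberg over 8109 named genes, and genes under an adjusted p of 0.05 are said to have risen or fallen. Arrays that share a replicate number moved together: at 24 h their deviations from the group means correlated at 0.44 to 0.66 in the 5 pairs, against a median of -0.29 between other numbers, and all 10 arrays lay closest to their own number. Counts that moved by over 1.5 times when the number entered the fit are therefore also given with that replicate block. Errors and adjusted p-values of single genes come from the fit without the block, in which fewer genes passed. A gene not past the threshold there is not shown to be unchanged. Cocultured replicate 5 stood apart, with an SD of 0.773 over its expressed probe sets against 0.268 to 0.380 in the other cocultured arrays and 0.329 to 0.392 in control arrays. The 18 probe sets of the transcripts added before hybridisation averaged 0.32 ± 0.65 in coculture and -0.54 ± 0.67 in control arrays (SD of log2 ratios, n = 5 each). That difference of 0.86 had a two-sided exact permutation p of 0.0794, and the coculture was higher in 5 of 5 pairs. The median of all named genes was -0.11 ± 0.23 in coculture and 0.08 ± 0.12 in control arrays (SD, n = 5 each), lower in the coculture of all 5 pairs (two-sided exact permutation p = 0.127).

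At 24 h, 225 named genes rose (2.77%) and 626 fell (7.72%) in coculture. With the replicate block 740 rose (9.13%) and 3136 fell (38.7%), 47.8% in either direction, and every one of the 851 genes was called again. Among the 225 that rose, 63 rose at least 2-fold and 11 at least 4-fold, and among the 626 that fell, 123 fell at least 2-fold and 7 at least 4-fold. The 5 cocultured and 5 control arrays did not overlap for 149 of the genes that rose and 359 of those that fell, where 2.26% of all genes had all cocultured arrays higher and 6.09% had them lower. Without replicate 5 the counts were 296 (3.65%) and 879 (10.8%), 14.5% in either direction, and 202 and 582 of the original calls were among them. In all 10 fits that left out 1 array each, 114 of the 225 and 237 of the 626 were called. Leaving out 1 array gave between 376 genes (without control replicate 3) and 1879 (without control replicate 5), with 482 without cocultured replicate 1, 407 and 423 without control replicates 2 and 4, and 546 without cocultured replicate 5. With the hybridisation control signal of each array as a covariate 559 rose (6.89%) and 380 fell (4.69%), 11.6% in either direction, and 177 of the 225 and 340 of the 626 were among them. With the covariate and the replicate block together, 17 genes rose and 27 fell, 43 of them among the 851. Of the genes described below, Fos, Dusp1, Bdnf, Vgf, Rgs2, Rgs4, Atf4, Asns and Pcdh20 were among those that fell, and Pdgfra, Apoe, Epas1, Zfp36l1, Vcam1, Fgfr2, Notch1 and Pclaf among those that rose. Fabp7, Sox2, Olig1, Acan, Adcy8, Mvd, Lss, Txnip, Lpl and all tRNA synthetase genes were not among the 44. The signal was higher in coculture in 5 of 5 pairs, so the fit with covariate and block separates signal and coculture poorly. Fos changed by -8.31 ± 1.76 (SE) in that fit, against -4.65 in the main fit. Absence from the 44 therefore does not show that the change of a gene follows the signal. With the covariate alone the median change of all named genes was 0.03, against -0.19 without it.

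Transcription factors of the immediate-early response held a larger share of falls (43.8%) than all named genes (7.72%). Of 16 measured members of a list of such factors, 7 fell and 1 rose, with a median change of -0.53, against -0.19 over all named genes (6 fell and 1 rose with the hybridisation covariate, with a median of -0.28). Fos, a partner of Jun in the AP-1 factor and the textbook reporter of neuronal activity, had ratios of 0.0735, 0.0365, 0.0664, 0.0168 and 0.0297 in cocultured replicates 1 to 5, against 0.508, 1.43, 0.836, 1.45 and 1 in control replicates 1 to 5. Every cocultured array lay far below every control array. The change was -4.65 ± 0.67 (SE; limma, adjusted p = 0.00016), a 25.1-fold difference. Ier2, an early nuclear regulator, had ratios of 0.276 to 0.736 in coculture against 1 to 2.12 in control arrays, again without overlap, and changed by -1.55 ± 0.33 (adjusted p = 0.0053, limma). Klf4 and Klf6, zinc-finger factors induced by growth factors and injury, changed by -1.49 ± 0.19 and -1.30 ± 0.21, and Nr4a3, an orphan nuclear receptor of the activity response, by -1.01 ± 0.19. Klf10, a TGF-beta-inducible factor of the same zinc-finger family, rose instead, by 1.13 ± 0.21 (limma, adjusted p = 0.0019).

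Among effector genes downstream of activity 11 of 24 measured members fell and 0 rose, with a median of -0.72. With the replicate block 17 fell, and with the hybridisation covariate 9, with a median of -0.41. Bdnf, the neurotrophin that potentiates synapses, had ratios of 0.419, 0.415, 0.396, 0.319 and 0.491 in cocultured replicates 1 to 5, against 1.46, 1.49, 1.43, 1.43 and 1.51 in control replicates 1 to 5. The spread within either group was small beside the gap, and the change was -1.86 ± 0.13 (SE; limma, adjusted p = 4.3e-08). Its 2 probe sets fell by different amounts, -3.07 and -0.64. Vgf, a precursor of secreted neuropeptides, had ratios of 0.334 to 0.645 in coculture and 1.11 to 1.92 in control arrays, and changed by -1.63 ± 0.22. Nfil3, a transcription factor induced by cAMP, changed by -1.41 ± 0.17, and Nrn1 (neuritin), a membrane-anchored protein that promotes neurite growth, by -0.83 ± 0.16. Homer1, a postsynaptic scaffold with an activity-induced short form, changed by -0.73 ± 0.17 over 6 probe sets, and its groups overlapped. Scg2, a granin of dense-core vesicles, changed by -1.87 ± 0.57 (adjusted p = 0.041, limma), and that call was lost with the hybridisation covariate (-0.84, adjusted p = 0.18).

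Genes that switch such signals off fell too. In a list of MAP kinase phosphatases, other feedback inhibitors and ERK-responsive ETS factors, 5 of 15 measured members fell and 0 rose (9 fell and 2 rose with the replicate block). Dusp1, an inducible phosphatase of the MAP kinases, had ratios of 0.426, 0.587, 0.647, 0.463 and 0.304 in cocultured replicates 1 to 5 and of 1.26, 1.98, 2.13, 2.47 and 1.17 in control replicates 1 to 5. No cocultured array reached a control array, and the change was -1.88 ± 0.30 (SE; limma, adjusted p = 0.00043). Dusp6, a phosphatase of ERK, changed by -1.45 ± 0.22, Dusp3 by -0.93 ± 0.15, Spry2, an inhibitor of receptor tyrosine kinase signalling, by -0.85 ± 0.12, and Etv5, an ERK-responsive ETS factor, by -0.61 ± 0.14. The 2 probe sets of Etv5 did not share a direction: its first probe set alone gave 0.075.

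In G-protein and cAMP signalling, 4 of 36 measured genes fell (11.1%, against 7.72% of all named genes) and 0 rose, with a median of -0.25. With the replicate block 18 fell and 2 rose, where 38.7% of all named genes fell. With the hybridisation covariate 3 rose and 3 fell and the median was -0.05. Rgs4, which speeds the shut-off of G proteins, had ratios of 0.235 to 0.333 in coculture and 0.884 to 1.74 in control arrays. Its change of -2.11 ± 0.24 (limma, adjusted p = 1.5e-05) was close to that of Rgs2, of the same family, at -2.13 ± 0.26, and Rgs10 of that family changed by -0.64 ± 0.20. Adcy8, the adenylyl cyclase that calcium and calmodulin stimulate, had ratios of 0.34, 0.255, 0.187, 0.152 and 0.137 in cocultured replicates 1 to 5 and of 1.67, 1.37, 1.55, 1.17 and 1.07 in control replicates 1 to 5. This 6.66-fold difference was a change of -2.74 ± 0.42 (SE; limma, adjusted p = 0.00027). Opn3, a light-sensing type of receptor, had ratios of 0.358 to 0.538 in coculture and 0.928 to 2.25 in control arrays and changed by -1.90 ± 0.25.

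Of 41 measured calcium signalling genes 5 fell (12.2%) and 1 rose (2.44%), against 7.72% and 2.77% of all named genes. With the replicate block 16 fell and 6 rose, where 38.7% of all named genes fell and 9.13% rose. Rcan2, an inhibitor of the phosphatase calcineurin, changed by -1.07 ± 0.16 (its 3 probe sets ran from -2.12 to 0.74), Camk1g and Camk1, calcium-dependent kinases, by -0.75 ± 0.14 and -0.95 ± 0.27, Atp2b2, a plasma-membrane calcium pump, by -0.87 ± 0.17, and Atp2a2, the pump of the endoplasmic reticulum, by -0.57 ± 0.14. Camk2a, the kinase of synaptic plasticity, rose by 0.48 ± 0.12 (limma, adjusted p = 0.017). Camk2n1, an inhibitor of that kinase, had ratios of 2.1, 2.33, 3.01, 2.55 and 1.06 in cocultured replicates 1 to 5 and of 0.513, 0.724, 0.765, 0.839 and 0.928 in control replicates 1 to 5. All cocultured arrays were above the controls, with the pair of replicate 5 the closest, and the change was 1.5 ± 0.29 (adjusted p = 0.0028, limma).

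Promoters are shown for genes of these groups that fell and hold the full cAMP response element, the site at which CREB binds in activity-dependent genes. The letters TGACGTCA were searched on both strands in RefSeq windows (build GRCr8) from 250 bases before to 50 after each gene's start, a search chosen after the changes were seen. They occurred in 525 of 27457 windows (1.91%) and in 3.66% of windows of named genes. They were found in 2 of 11 immediate-early windows, 4 of 20 effector windows and 1 of 14 windows of the list of phosphatases and feedback genes. Of the windows of members that fell, 1 of 4, 2 of 9 and 1 of 5 in these lists held it, and most did not. The 4 that hold it follow 5′ to 3′ with the element in capitals.
Dusp1 (chr10:17184603-17184902, plus strand): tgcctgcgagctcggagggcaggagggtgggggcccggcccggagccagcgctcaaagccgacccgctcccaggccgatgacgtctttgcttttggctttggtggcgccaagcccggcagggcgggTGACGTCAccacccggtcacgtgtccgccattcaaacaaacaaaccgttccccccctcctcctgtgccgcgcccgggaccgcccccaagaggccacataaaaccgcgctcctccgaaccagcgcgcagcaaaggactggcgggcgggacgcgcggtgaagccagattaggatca
Scg2 (chr9:88256817-88257116, minus strand): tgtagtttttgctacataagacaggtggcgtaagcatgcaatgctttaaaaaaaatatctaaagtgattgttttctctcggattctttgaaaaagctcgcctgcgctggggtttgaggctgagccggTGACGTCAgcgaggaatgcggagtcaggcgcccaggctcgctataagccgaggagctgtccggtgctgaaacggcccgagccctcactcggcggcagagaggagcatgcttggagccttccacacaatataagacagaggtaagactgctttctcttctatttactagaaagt
Vgf (chr12:25276971-25277270, minus strand): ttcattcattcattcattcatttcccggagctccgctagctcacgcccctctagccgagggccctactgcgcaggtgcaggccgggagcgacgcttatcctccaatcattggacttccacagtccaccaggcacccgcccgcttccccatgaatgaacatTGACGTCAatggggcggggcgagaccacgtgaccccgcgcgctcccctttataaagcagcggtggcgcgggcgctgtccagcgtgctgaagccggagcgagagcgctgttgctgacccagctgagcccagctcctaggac
Ier2 (chr19:40399123-40399422, plus strand): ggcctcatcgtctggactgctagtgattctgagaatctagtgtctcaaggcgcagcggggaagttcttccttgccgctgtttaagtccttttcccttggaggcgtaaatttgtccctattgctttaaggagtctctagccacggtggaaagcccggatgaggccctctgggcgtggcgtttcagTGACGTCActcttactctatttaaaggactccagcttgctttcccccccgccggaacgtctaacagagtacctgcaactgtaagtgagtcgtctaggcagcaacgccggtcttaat
The element starts 124 bases before the start of Dusp1, 123 before that of Scg2, 90 before that of Vgf and 66 before that of Ier2. The short element TGACG, which the full one contains, was in 22% of all windows and in 34.5% of those of named genes, and in 7 of 11, 15 of 20 and 8 of 14 windows of the same lists. A match is a description and not a binding site.

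**Figure D1:**
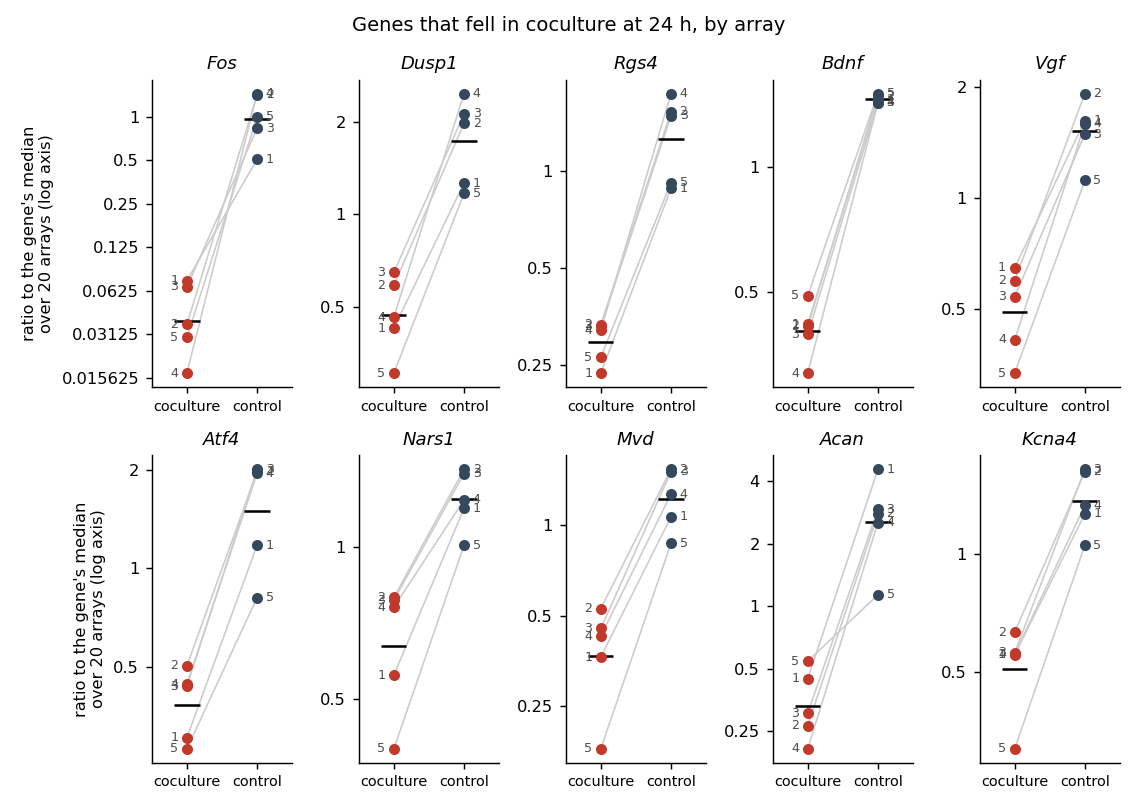
Ratio to the median over 20 arrays (log axis) of 10 genes that fell, with 1 point per array, replicate numbers beside the points, grey lines joining same-numbered arrays and black bars at the geometric mean of each group (n = 5). For all 10 genes every cocultured array (left) lies below every control array (right).

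Of 21 measured genes of secretory peptides and their processing enzymes 7 fell (33.3%) and 2 rose (9.52%), with a median of -0.42. Of all named genes 7.72% fell and 2.77% rose. With the replicate block 12 fell and 4 rose, where 38.7% of all named genes fell and 9.13% rose. With the hybridisation covariate 5 fell and 2 rose and the median turned to 0.09. Cadps2, which primes dense-core vesicles, changed by -1.90 ± 0.25 (probe sets -3.08 and -0.73), Pam, the enzyme that amidates peptides, by -1.47 ± 0.19, Ptprn, a dense-core vesicle protein, by -0.72 ± 0.17, and Pcsk2, a prohormone convertase, by -0.61 ± 0.16 (probe sets -1.54 and 0.31). Igfbp5, a binding protein of insulin-like growth factors, rose by 0.68 ± 0.15, and Cck, the cholecystokinin precursor, by 0.65. The peptides that mark interneurons, Npy and Sst, had changes of -0.20 ± 0.14 and -0.56 ± 0.44, with adjusted p = 0.31 and 0.39 in limma.

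Other secreted signals went up more often than down: of 30 measured trophic genes 4 rose and 1, Bdnf, fell (6 and 5 with the replicate block). Wnt7a, a ligand that promotes presynaptic assembly, had ratios of 1.55, 2.35, 1.93, 1.97 and 1.03 in cocultured replicates 1 to 5 and of 0.7, 0.665, 0.701, 0.75 and 0.986 in control replicates 1 to 5. The groups did not overlap, though replicate 5 hardly differed within its pair, and the change was 1.17 ± 0.23 (SE; limma, adjusted p = 0.0025). Vegfc, a vascular growth factor, rose by 0.65 ± 0.16, Mdk (midkine), a heparin-binding growth factor, by 0.63 ± 0.18, and Tgfb2 by 0.51 ± 0.15.

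Genes of amino acid supply and of tRNA charging held larger shares of falls (42.3% and 42.9%) than all named genes (7.72%). The integrated stress response is a pathway in which the factor ATF4 raises genes for amino acid synthesis, uptake and tRNA charging. Of its 26 measured genes 11 fell and 1 rose, with a median of -0.41. With the hybridisation covariate 7 fell and 2 rose, with a median of -0.22. Atf4 itself had ratios of 0.305, 0.505, 0.438, 0.444 and 0.282 in cocultured replicates 1 to 5 and of 1.18, 1.97, 2, 1.95 and 0.815 in control replicates 1 to 5. Its groups did not overlap and the change was -1.95 ± 0.30 (SE; limma, adjusted p = 0.00033). Psph, the last enzyme of serine synthesis, had ratios of 0.542 to 0.73 in coculture and 0.996 to 2.84 in control arrays (-1.52 ± 0.27), and Asns, asparagine synthetase, 0.517 to 0.839 and 1.02 to 1.8 (-1.15 ± 0.21). Chac1, which degrades glutathione, changed by -1.08 ± 0.18, Shmt2, a mitochondrial enzyme of serine and one-carbon metabolism, by -1.05 ± 0.22, and Slc3a2, the heavy chain of amino acid transporters, by -0.93 ± 0.17. Phgdh, the first enzyme of serine synthesis, rose by 0.77. Gcat, which breaks down threonine to glycine, changed by -1.65 ± 0.19 (limma, adjusted p = 1.4e-05).

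Of 21 measured aminoacyl-tRNA synthetase genes, which couple amino acids to their tRNAs, 9 fell and 0 rose, with a median of -0.50, and 16 fell with the replicate block. Nars1, the asparaginyl enzyme, had ratios of 0.557, 0.794, 0.784, 0.759 and 0.398 in cocultured replicates 1 to 5 and of 1.19, 1.42, 1.4, 1.24 and 1.01 in control replicates 1 to 5. All 5 cocultured arrays were below all control arrays, and the change was -0.96 ± 0.22 (SE; limma, adjusted p = 0.0089). The enzymes for methionine (Mars1), alanine (Aars1), tyrosine (Yars1) and cysteine (Cars1) changed by -0.71 ± 0.19, -0.69 ± 0.14, -0.64 ± 0.13 and -0.46 ± 0.11. With the hybridisation covariate the list median was -0.12 and 5 members fell.

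The composite element TGATGNAA, at which C/EBP and ATF4 bind together, was searched in the same windows, and the windows shown are the 4 largest falls that hold it. It was in 1048 of 27457 windows (3.82%) and in 1.91% of windows of named genes. Of synthetase windows 7 of 18 held it, and 5 of the 8 windows of synthetases that fell; of the amino acid and stress list 6 of 24 held it, and 2 of the 10 windows of its members that fell.
Chac1 (chr3:126795881-126796180, plus strand): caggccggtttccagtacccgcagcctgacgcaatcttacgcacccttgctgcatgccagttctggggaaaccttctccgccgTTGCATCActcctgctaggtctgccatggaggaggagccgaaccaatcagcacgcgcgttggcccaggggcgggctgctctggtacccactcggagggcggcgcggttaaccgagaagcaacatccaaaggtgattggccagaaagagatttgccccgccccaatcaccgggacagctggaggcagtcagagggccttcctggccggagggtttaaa
Nars1 (chr18:60275733-60276032, minus strand): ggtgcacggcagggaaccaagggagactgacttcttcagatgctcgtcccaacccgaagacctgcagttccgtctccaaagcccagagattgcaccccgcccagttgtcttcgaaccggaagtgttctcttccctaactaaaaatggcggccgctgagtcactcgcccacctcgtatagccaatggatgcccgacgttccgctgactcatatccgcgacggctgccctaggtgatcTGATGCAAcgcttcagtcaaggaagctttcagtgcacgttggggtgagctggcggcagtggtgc
Mars1 (chr7:65023704-65024003, minus strand): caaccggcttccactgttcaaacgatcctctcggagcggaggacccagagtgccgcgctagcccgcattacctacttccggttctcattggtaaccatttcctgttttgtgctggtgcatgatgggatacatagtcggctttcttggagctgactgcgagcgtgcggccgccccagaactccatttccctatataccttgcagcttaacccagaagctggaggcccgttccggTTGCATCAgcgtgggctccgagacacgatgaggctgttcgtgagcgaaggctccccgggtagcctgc
Aars1 (chr19:55908232-55908531, plus strand): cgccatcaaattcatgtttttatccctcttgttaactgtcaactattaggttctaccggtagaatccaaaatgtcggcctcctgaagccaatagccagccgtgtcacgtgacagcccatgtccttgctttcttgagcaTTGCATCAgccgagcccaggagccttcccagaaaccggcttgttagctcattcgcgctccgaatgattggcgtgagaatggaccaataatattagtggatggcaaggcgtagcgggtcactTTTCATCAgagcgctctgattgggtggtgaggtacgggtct
The element, in capitals, starts 167 bases before the start of Chac1, 14 before that of Nars1 and 17 before that of Mars1, and the Aars1 window holds 2 copies. Only members that fell could be shown, so the falls of these 4 genes say nothing about the element, and its role was not tested.

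Cholesterol synthesis held the highest share of falling genes among the 39 lists in the main fit, with 20 of 32 measured genes down and 0 up. The median was -0.70. With the replicate block 25 fell and 3 rose, while 30 of 39 proteasome genes and 44 of 60 oxidative phosphorylation genes fell in that fit. Mvd, mevalonate decarboxylase of the early pathway, had ratios of 0.364, 0.527, 0.453, 0.427 and 0.181 in cocultured replicates 1 to 5 and of 1.06, 1.52, 1.5, 1.26 and 0.866 in control replicates 1 to 5. The groups did not overlap and the change was -1.72 ± 0.32 (SE; limma, adjusted p = 0.0018). Lss, which closes the sterol ring, had ratios of 0.491 to 0.687 in coculture and 1.06 to 1.27 in control arrays (-0.98 ± 0.16). Enzymes of the later steps also fell, with changes of -1.45 ± 0.16 for Tm7sf2, -1.33 ± 0.21 for Sc5d and -1.19 ± 0.16 for Ebp. Insig1, the sterol sensor that holds back the pathway, changed by -1.03 ± 0.17. With the covariate 18 members fell and 1 rose, with a median of -0.45, and without replicate 5, 19 fell and 1 rose. The sterol regulatory element, searched as TCACNCCAC, was in 0 of 25 windows of this list and in 1.13% of all windows, which says only that these letters are not in those windows.

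Of 34 genes of fatty acid and glycerolipid synthesis 7 fell and 1 rose (19 and 1 with the replicate block), with a median of -0.34. With the hybridisation covariate 5 fell and 2 rose and the median was 0.00. Gpat3, which starts triglyceride synthesis, had ratios of 0.258 to 0.691 in coculture and 1.31 to 2.22 in control arrays (-1.76 ± 0.27), Selenoi, a phospholipid synthase, changed by -1.74 ± 0.25, Fasn, fatty acid synthase, by -0.86 ± 0.21, and Scd, stearoyl-CoA desaturase, by -0.66 ± 0.18. Lpl, the lipase that frees fatty acids from lipoproteins, had ratios of 2.37, 2.73, 3.03, 2.26 and 1.11 in cocultured replicates 1 to 5 and of 0.879, 0.881, 1.06, 0.869 and 1 in control replicates 1 to 5. Cocultured replicates 1 to 4 stood well above the controls and replicate 5 just above them, and the change was 1.22 ± 0.21 (SE; limma, adjusted p = 0.00082).

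Among genes of matrix and cell surface, Acan (aggrecan), a proteoglycan of perineuronal nets, showed the largest fall after that of Fos among named genes. Its ratios were 0.446, 0.265, 0.304, 0.205 and 0.542 in cocultured replicates 1 to 5, against 4.56, 2.78, 2.93, 2.53 and 1.13 in control replicates 1 to 5. No array overlapped, the change was -2.94 ± 0.39 (SE; limma, adjusted p = 5.6e-05), and the difference was 7.68-fold. Of 46 matrix genes 6 rose and 3 fell (12 and 8 with the replicate block): Nid2 (nidogen) changed by -1.09 ± 0.17 and Thbs2, a thrombospondin, by -0.55 ± 0.15, while Ptprz1, a receptor phosphatase with a proteoglycan form, rose by 1.73 ± 0.21, Serpine2, a protease inhibitor, by 0.75 ± 0.20 and Fn1 (fibronectin, which also coated the coverslips as protein) by 0.78 ± 0.23. Fbln1 (fibulin) rose by 1.49 ± 0.46 with overlapping groups.

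Among 45 genes of synaptic adhesion, cadherins and protocadherins 2 fell and 1 rose (12 and 7 with the replicate block). The shares of 4.44% and 2.22% stood against 7.72% and 2.77% of all named genes. Pcdh20, a protocadherin, had ratios of 0.316 to 0.421 in coculture and 1.1 to 3.53 in control arrays (-2.50 ± 0.24; limma, adjusted p = 1.6e-06), and Pcdh10 had 0.544 to 0.779 and 1 to 2.56 (-1.48 ± 0.27). Nlgn2, the neuroligin of inhibitory synapses, rose by 0.45 ± 0.14. Amigo2, a leucine-rich adhesion protein, had ratios of 0.384 to 0.478 in coculture and 0.844 to 1.67 in control arrays (-1.51 ± 0.19), and Tpbg, a membrane glycoprotein that restrains Wnt signalling, changed by -2.50 ± 0.43. Of 38 guidance genes 5 fell and 0 rose (13 and 4 with the replicate block). Omg, an inhibitor of neurite growth, changed by -1.40 ± 0.21, the repellent Slit2 by -1.0 ± 0.21, its receptor Robo2 by -0.56 ± 0.17, the semaphorin Sema6a by -0.62 ± 0.12 and the semaphorin receptor Plxnd1 by -0.78 ± 0.18.

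Synaptic and channel genes moved in both directions. Of 45 genes of vesicles and active zones 5 fell (11.1%, against 7.72% of all named genes) and 0 rose. The vesicle protein Syngr3 was among those that fell, at -0.79 ± 0.23. With the replicate block 27 fell and 4 rose. With the hybridisation covariate 2 fell and 3 rose, and the list median was -0.05, against -0.40 without it. Snap25 and Syt1, core parts of the release machinery, had changes of -0.18 ± 0.17 and -0.08 ± 0.25 (limma, adjusted p = 0.47 and 0.83). Glutamate receptors and scaffolds held 3 rises and 3 falls among 30 genes (5 and 7 with the replicate block). Cacng8, an AMPA receptor partner, rose by 0.86 ± 0.17 and Grin3a, an NMDA receptor subunit, by 0.49 ± 0.13, while the scaffolds Grip1 and Dlg2 changed by -0.54 ± 0.13 and -0.58 ± 0.18. The first probe set of Dlg2 alone gave 0.092.

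For inhibitory transmission 1 of 21 genes rose and 1 fell (2 and 11 with the replicate block). Of 46 voltage-gated channel genes 3 rose and 3 fell (6 and 14 with the replicate block). Each share was 6.52%, where 2.77% of all named genes rose and 7.72% fell. Kcna4, an A-type potassium channel, had ratios of 0.319 to 0.632 in coculture and 1.05 to 1.64 in control arrays (-1.41 ± 0.28). Kcnv1, a modifier of potassium channels, changed by -1.13 ± 0.30. Kcnn2, a calcium-activated potassium channel, rose by 0.85 ± 0.25, the calcium channel subunit Cacna2d3 by 0.69 ± 0.20 and Kcnmb4, a subunit of BK channels, by 0.47 ± 0.15.

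The largest rises were of genes that mark glial precursors and radial glia rather than neurons. In RNA from whole coverslips, more cells of a type and more RNA per cell cannot be told apart. Of 18 listed radial glia and progenitor markers 9 were measured. Of these 8 rose and 0 fell, with a median change of 1.37, and all 9 were called with the replicate block. Genes were named only from probe sets called present in 10 of 20 arrays. The cocultured arrays of both times could meet that alone, while a marker low in both groups could drop out. That filter may raise the shares of markers that rose, here and in the precursor, astrocyte and cell division lists below. Fabp7, the brain fatty acid binding protein of radial glia, had ratios of 1.61, 1.69, 1.49, 1.89 and 2.96 in cocultured replicates 1 to 5 and of 0.0231, 0.0294, 0.0547, 0.507 and 0.0855 in control replicates 1 to 5. Control replicate 4 was the nearest to the cocultured arrays and still below them, and the change of 4.75 ± 0.58 (SE; limma, adjusted p = 3.1e-05) was 26.9-fold. Sox2, a factor of neural stem cells and glia, had ratios of 1.56 to 2.34 in coculture and 0.209 to 0.444 in control arrays (2.60 ± 0.22). Slc1a3, a glial glutamate transporter, rose by 1.37 ± 0.21 (probe sets -0.05 and 2.79), Vim (vimentin) by 1.11 ± 0.25, and the progenitor factor Pax6 by 0.63 ± 0.19. The per-array median of these 9 markers ran between 0.40 and 1.22 in coculture and between -1.05 and -0.42 in control arrays (log2 ratio). With the hybridisation covariate 7 of the 9 rose, with a median of 1.19.

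Markers of oligodendrocyte precursors were the most raised list, with 4 of 6 measured genes up, of 14 listed, and a median of 2.29. Ptprz1 is a member of this list and of that of radial glia. Pdgfra, the receptor by which these cells divide in response to platelet-derived growth factor, had ratios of 2.31, 2.06, 1.77, 1.88 and 4.53 in cocultured replicates 1 to 5 and of 0.134, 0.083, 0.174, 0.253 and 0.224 in control replicates 1 to 5. Cocultured replicate 5 was the highest, the groups did not overlap, and the change was 3.86 ± 0.33 (SE; limma, adjusted p = 4.5e-07). Olig1, a lineage factor, had ratios of 1.66 to 4.12 in coculture and 0.0979 to 0.336 in control arrays (3.61 ± 0.33), and Bcas1, found in early myelinating cells, 1.59 to 3.71 and 0.204 to 0.412 (2.85 ± 0.35). Of 6 genes of mature myelin 1 rose, Cnp by 1.18 ± 0.22, while Mbp and Mog had changes of 0.05 ± 0.16 and 0.02 ± 0.12 (limma, adjusted p = 0.83 and 0.91).

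Of 22 listed astrocyte markers 15 were measured, of which 6 rose and 0 fell, with a median of 0.64 (8 and 0 with the replicate block). Apoe, the lipid carrier that astrocytes secrete, had ratios of 0.977, 2.07, 1.26, 1.31 and 2.67 in cocultured replicates 1 to 5 and of 0.265, 0.212, 0.262, 1.02 and 0.449 in control replicates 1 to 5. Control replicate 4 overlapped the cocultured arrays, and the change was 2.07 ± 0.35 (SE; limma, adjusted p = 0.00059). Ndrg2, an astrocyte-enriched gene, rose by 2.16 ± 0.36, Fgfr3 by 1.32 ± 0.41, with ratios of 1.01 to 3.9 in coculture and 0.471 to 1.24 in control arrays, and the matrix proteins Bcan and Sparcl1 by 0.85 ± 0.25 and 0.79 ± 0.24. Fgfr3 and Bcan were not called with the hybridisation covariate (adjusted p = 0.17 and 0.15). Of the list members that did not pass the test, Aqp4, Glul, Aldoc and Gja1 had changes of -0.17 ± 0.22, -0.11 ± 0.13, -0.06 ± 0.16 and 0.54 ± 0.38, with adjusted p of 0.33 or more in limma. Gfap, also not past it, changed by 0.64 ± 0.24 (adjusted p = 0.083, limma).

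**Figure D2:**
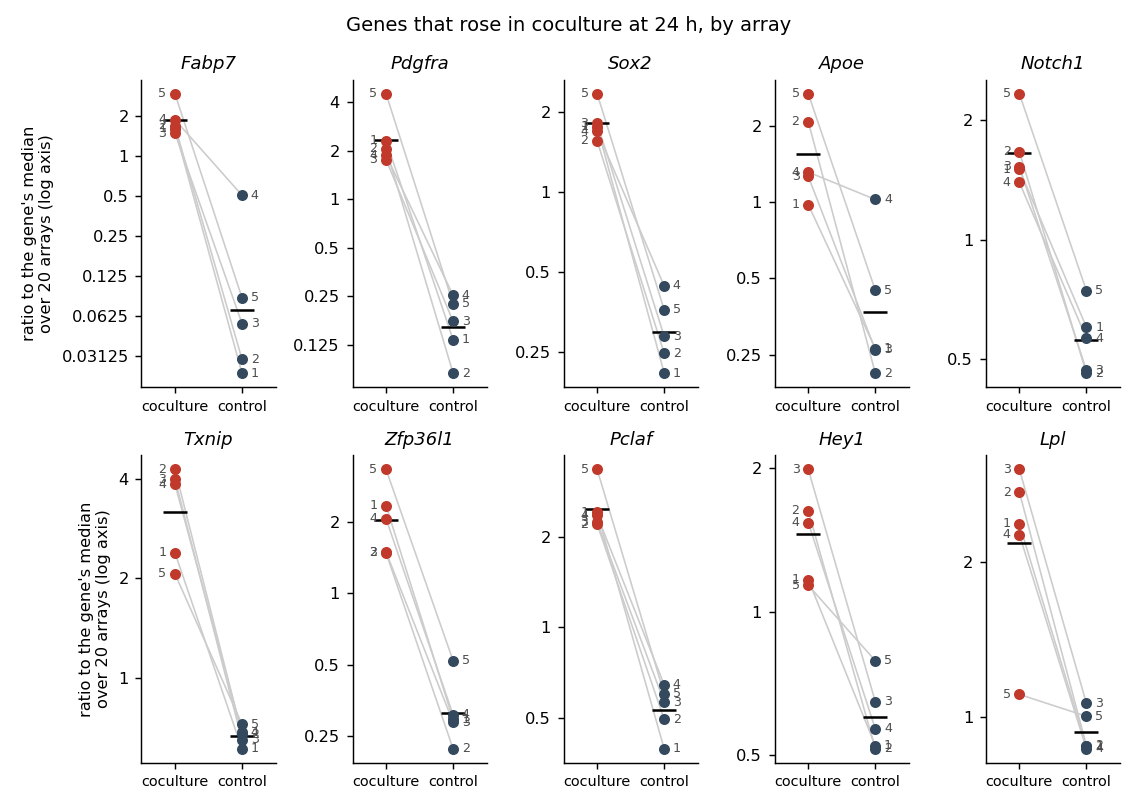
Ratio to the median over 20 arrays (log axis) of 10 genes that rose, with 1 point per array, replicate numbers beside the points, grey lines joining same-numbered arrays and black bars at the geometric mean of each group (n = 5). Control replicate 4 lies nearest the cocultured arrays (left) for Fabp7 and Apoe, and cocultured replicate 5 is the highest for Pdgfra and the lowest for Lpl.

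Few markers of neuronal types passed the test. Subplate markers showed 0 rises and 0 falls among 13 measured of 20 listed, with a median of -0.22 (3 and 6 with the replicate block). Ccn2 and Nr4a2, which mark the deepest cortical layer, had changes of -1.51 ± 0.53 and -0.74 ± 0.26 (limma, adjusted p = 0.07 and 0.071), and Lpar1, a lysophosphatidic acid receptor, 1.03 ± 0.37 (adjusted p = 0.077). Ngfr, the p75 receptor used for panning, and Cplx3 are not among the named genes, so no change is given for them. Changes of markers between coculture and control do not show which cells the coverslips held. Of 14 genes of all neurons 1 rose, Rbfox3 by 0.28 ± 0.09 (2 rose and 6 fell with the replicate block), and of 16 cortical plate markers 1 rose, Bcl11b by 0.73 ± 0.19 (6 and 3 with the replicate block). Among 9 interneuron markers 3 rose, the factors Sox6 (1.28 ± 0.20) and Dlx1 (0.86 ± 0.19) and the receptor Ackr3 (1.09 ± 0.23), and 0 fell (5 and 1 with the replicate block). Sox6 and Ackr3 are also expressed in glial precursors or vascular cells. Of 15 listed markers of microglia and macrophages 0 were measured, and for meningeal and endothelial cells 3 and 1 were, of which Fn1 alone rose. What part such cells had in the changes of other groups was not tested.

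Genes of cell division rose more often than they fell. Of 35 measured genes of DNA replication and division 14 rose and 1 fell, with a median of 0.22, against -0.19 over all named genes, and 17 and 6 did so with the replicate block. Pclaf, a partner of the replication clamp PCNA, had ratios of 2.42, 2.21, 2.24, 2.37 and 3.37 in cocultured replicates 1 to 5 and of 0.393, 0.493, 0.563, 0.643 and 0.6 in control replicates 1 to 5. The gap between the groups was wide beside the spread in each, and the change was 2.23 ± 0.16 (SE; limma, adjusted p = 4.3e-08). Aspm, a spindle protein of dividing progenitors, had ratios of 1.33 to 1.55 in coculture and 0.561 to 0.695 in control arrays. Rrm2, which makes DNA precursors, rose by 1.55 ± 0.23, Ect2, needed for cytokinesis, by 1.13 ± 0.14, and the mitotic kinase Cdk1 and its partner Cks2 by 1.12 ± 0.18 and 1.02 ± 0.15. Ccne1, the cyclin of S-phase entry, fell by 0.47.

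Growth factor receptors and developmental pathways held rises and falls. Of 28 growth factor receptors 6 rose and 2 fell (11 and 4 with the replicate block), Pdgfra and Fgfr3 above, the endothelin receptor Ednrb by 1.21 ± 0.21, Fgfr2 by 1.13 ± 0.25 and Igf1r by 0.60 ± 0.15, while Tyro3, a receptor kinase for Gas6, changed by -1.13 ± 0.26 and Gfra1, a receptor for GDNF, by -0.65. Notch1 had ratios of 1.5, 1.67, 1.53, 1.4 and 2.33 in cocultured replicates 1 to 5 and of 0.603, 0.462, 0.47, 0.566 and 0.745 in control replicates 1 to 5. All pairs differed by similar amounts, and the change was 1.56 ± 0.20 (SE; limma, adjusted p = 5e-05). Hey1, a target of Notch, had ratios of 1.14 to 1.98 in coculture and 0.516 to 0.789 in control arrays (1.28 ± 0.17), and Numb, an antagonist of Notch, changed by -0.91 ± 0.23, so that 2 of 15 pathway genes rose and 1 fell (3 and 7 with the replicate block). In the Wnt pathway Wnt7a and the nuclear factor Tcf7 (0.72 ± 0.17) rose and the antagonist Nkd2 fell (-0.55 ± 0.14), of 20 measured (3 and 3 with the replicate block). In TGF-beta and BMP signalling 3 of 18 rose and 1 fell (3 and 4 with the replicate block). Id1, a BMP target, rose by 0.67 ± 0.21, Fst (follistatin) by 0.56 ± 0.15 and Tgfbi by 0.52 ± 0.14, and Tgfb1i1 changed by -0.78 ± 0.16. Vcam1, an adhesion molecule of progenitors and vessels, rose by 1.83 ± 0.28 and Epas1, a hypoxia-inducible factor, by 1.87 ± 0.29, with ratios of 1.27 to 4.21 in coculture and 0.432 to 0.729 in control arrays.

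Regulators of nutrient signals and of mRNA stability were also among the genes that rose. Txnip, a glucose-regulated inhibitor of thioredoxin, had ratios of 2.39, 4.27, 4, 3.86 and 2.07 in cocultured replicates 1 to 5 and of 0.611, 0.676, 0.65, 0.685 and 0.725 in control replicates 1 to 5. The control arrays were nearly alike and all cocultured arrays far above them, and the change was 2.25 ± 0.25 (SE; limma, adjusted p = 1.1e-05). Foxo1, the factor that insulin signalling keeps out of the nucleus, had ratios of 0.929 to 2.69 in coculture and 0.449 to 1.27 in control arrays (1.15 ± 0.34). In that list 5 of 24 genes rose and 2 fell, among them Ccng2, a cyclin-like gene that FoxO factors induce, by 0.79. Zfp36l1, which destabilises mRNAs with AU-rich ends, had ratios of 2.34, 1.48, 1.49, 2.06 and 3.33 in cocultured replicates 1 to 5 and of 0.294, 0.221, 0.286, 0.307 and 0.52 in control replicates 1 to 5. The pairs differed by much the same amount, and the change was 2.71 ± 0.24 (SE; limma, adjusted p = 5e-07). Its relative Zfp36l2 rose by 1.22 ± 0.23 and Qki, a splicing factor of glia, by 1.52 ± 0.16, its 3 probe sets running from 0.42 to 3.65, with ratios of 1.22 to 1.89 in coculture and 0.353 to 0.674 in control arrays. Of 61 RNA-binding genes 5 rose and 2 fell (12 and 11 with the replicate block), the falls being Cpeb1 at -0.51 and Msi2 at -0.57. Erbin, a scaffold that binds the receptor ErbB2, had ratios of 1.27 to 1.53 in coculture and 0.412 to 0.731 in control arrays (1.45 ± 0.15). Ifrd1, a transcriptional co-regulator, had 0.255 to 0.553 in coculture and 1.19 to 1.76 in control arrays (-1.83 ± 0.24).

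**Figure D3:**
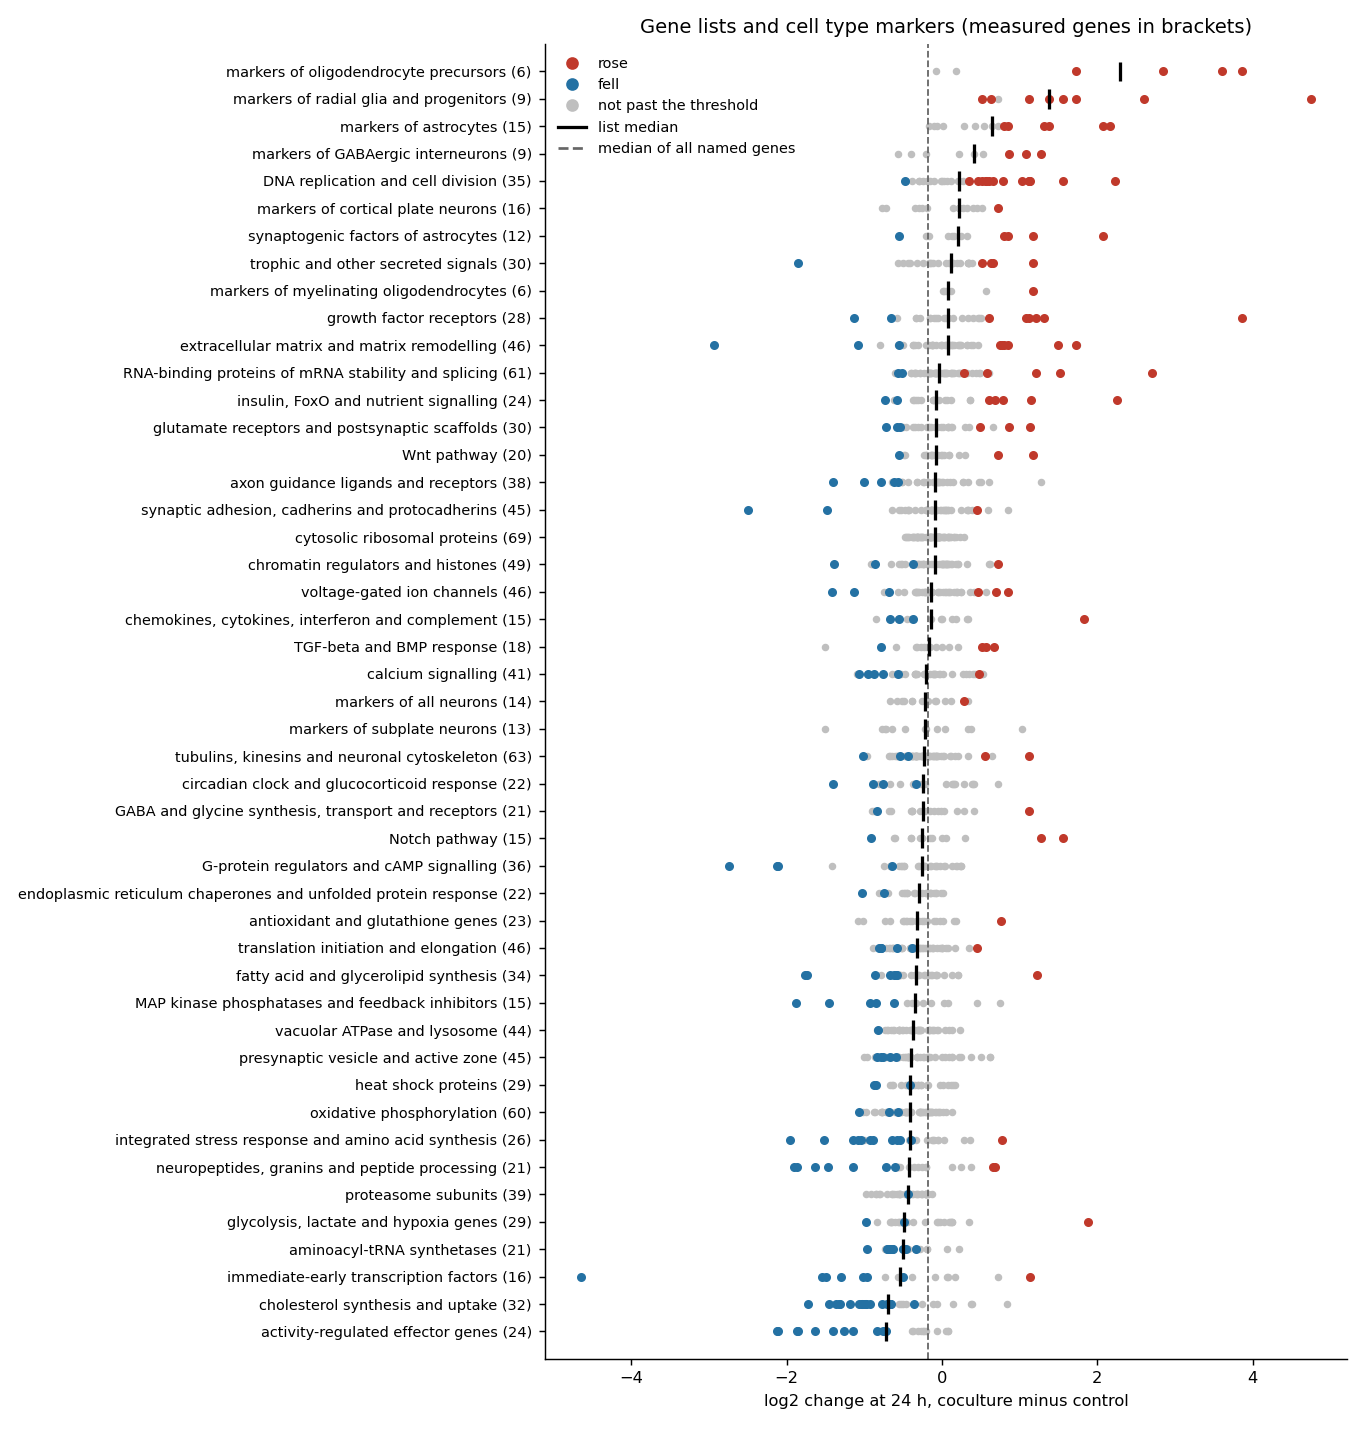
Log2 change at 24 h, coculture minus control, of each measured gene in lists with 5 or more measured genes, ordered by list median (black bars), with genes that rose in red, genes that fell in blue and the median of all named genes (-0.19) as a dashed line. Precursor and radial glia markers lie highest, and effector and cholesterol genes lowest.

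Large housekeeping groups showed few calls, and their median changes depended on the fit. Of 60 oxidative phosphorylation genes 3 fell and 0 rose, with a median of -0.41, but 44 fell with the replicate block, and with the hybridisation covariate the median was -0.03 and 1 fell. Proteasome genes had 1 fall of 39 and a median of -0.43 (30 falls with the replicate block, 0 and a median of -0.04 with the covariate), vacuolar ATPase and lysosome genes 1 of 44 (30 and 1), and translation factors 5 falls and 1 rise of 46 (28 and 2 with the replicate block). Ribosomal protein genes had 0 rises and 0 falls of 69 in limma, 1 rise and 21 falls with the replicate block and 2 rises and 0 falls with the covariate. The per-array medians of oxidative phosphorylation genes overlapped between groups, from -0.78 to 0.08 in coculture and -0.16 to 0.39 in control arrays. The part of the hybridisation signal in the remaining differences was not tested beyond these fits.

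**Figure D4:**
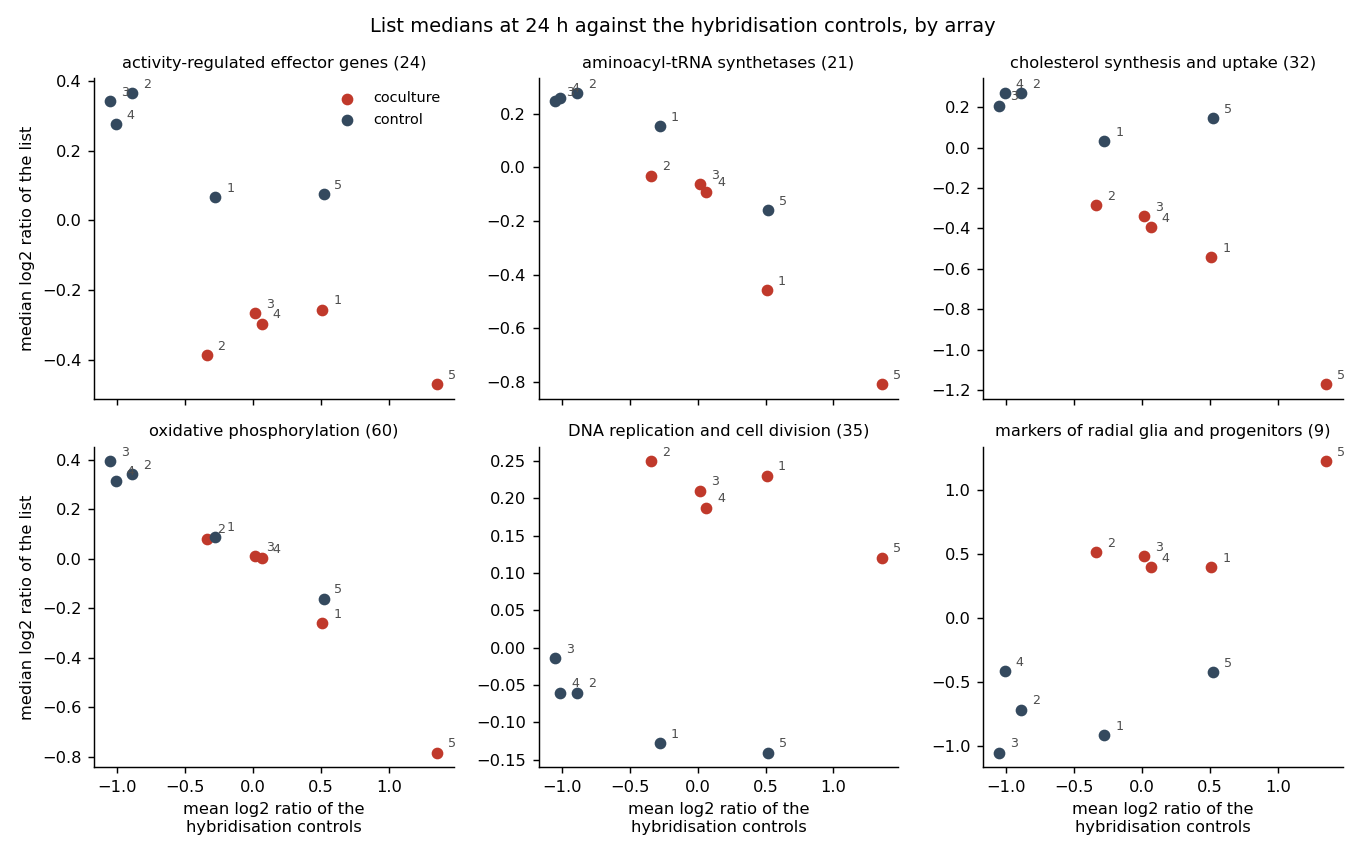
Median log2 ratio of 6 gene lists in each of the 10 arrays at 24 h (y axes) against the mean log2 ratio of the hybridisation controls in that array (x axes), cocultured arrays in red, control arrays in dark blue, with replicate numbers. The groups overlap in height for oxidative phosphorylation and tRNA synthetases and are apart for radial glia markers, cell division, effector genes and cholesterol genes.

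The remaining lists had at most 5 called genes each. Heat shock proteins showed 3 falls of 29 (19 with the replicate block), led by the co-chaperone Dnajb1 (-0.88 ± 0.19), and endoplasmic reticulum chaperones 2 of 22 (11 with the replicate block), led by Herpud1 (-1.04 ± 0.23). Clock and glucocorticoid genes showed 4 falls of 22 (11 falls and 3 rises with the replicate block), with the clock repressor Cry1 at -0.88 ± 0.14. Among chromatin regulators 3 of 49 fell and 1 rose (14 and 4 with the replicate block). Hdac5, a histone deacetylase that calcium signals export from the nucleus, changed by -1.39 ± 0.30, the histone methyltransferase Suv39h1 by -0.86 ± 0.19 and the acetyltransferase Kat5 by -0.37 ± 0.11, while Kat2b, another acetyltransferase, rose by 0.72 ± 0.14. Cytoskeletal genes had 3 falls and 2 rises of 63 (32 and 4 with the replicate block), antioxidant genes 1 rise of 23 (1 rise and 14 falls with the replicate block), Gsta4 by 0.76 ± 0.16, and glycolysis and hypoxia genes 2 falls and 1 rise of 29 (16 and 2 with the replicate block). Cytokine and interferon genes had 3 falls and 1 rise, Vcam1, of 15 (7 and 2 with the replicate block), and 12 synaptogenic factors of astrocytes had 4 rises and 1 fall, all named above. Cajal-Retzius markers had 0 rises and 0 falls of 4 (2 rises with the replicate block). Among called genes with several probe sets, 10 of 58 that rose and 16 of 130 that fell had a probe set of the opposite sign, Kat5 (-0.85 and 0.12) among them. Just inside the threshold lay Arhgap17 (0.38), Fam98a (-0.28) and Rbm42 (-0.53), and just outside it P4htm (-0.64), Rnh1 (-0.63) and Tp53rkb (-0.41).

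The difference between the change at 24 h and that at 96 h passed the test for 4 of 8109 genes (0.0493%), and for 871 with the replicate block (10.7%). Without cocultured replicate 5 at 24 h the count was 23, and without cocultured or control replicate 4 it was 1. Lpl was higher in coculture at 24 h (1.22) and lower at 96 h (-1.15), a difference of 2.37 ± 0.30 (SE; limma, adjusted p = 0.00093). Snx18, a sorting nexin, and Ak4, a mitochondrial adenylate kinase, fell less at 24 h (-0.92 and -0.89) than at 96 h (-2.04 and -2.17), with adjusted p = 0.016 for both in limma, and Garin5a was higher by 1.05 at 96 h and by 0.17 at 24 h (adjusted p = 0.016, limma). Fos changed by -4.65 at 24 h and -1.61 at 96 h, and Lss by -0.98 and 0.09, but neither difference passed (limma, adjusted p = 0.42 and 0.085).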

How the data were processed

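The authors deposited linear ratios, which per the file headers are RMA values over all 20 arrays divided by the median of each probe set. In the file, 31069 of 31099 probe sets had a median ratio of 1 within 0.001. RMA and MAS5 appear in the submitters' processing notes with no role or version. Per the file headers a second deposited table annotates 17243 probe sets called present in 10 of 20 arrays. Signal over background is unknown, and the number of arrays limits the precision.

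Ratios were turned to log2, and 57 control probe sets were left out. Symbols came from the deposited annotation, updated through RefSeq (GRCr8); 8109 genes were named from 11341 probe sets, and for the 2281 with more than 1 the log2 values were averaged. The planned rules assumed log2 values, and the linear ratios were transformed without scaling or a floor. Group means of all 20 arrays were fitted in limma 3.58.1 (R 4.3.3; 16 residual degrees of freedom), with Benjamini-Hochberg adjustment over 31042 probe sets or 8109 genes and a threshold of 0.05. The labels call the replicates biological. Over all groups the deviations of the 30 same-number pairs correlated at 0.242 or more, so the numbers were taken to pair the samples; the fit without the block is reported because the labels state no pairing. Alternatives were the number as a fixed or random block, the arrays at 24 h alone, the hybridisation covariate, cyclic loess, equal medians, a floor, other probe set rules, array weights, a robust prior, a fold minimum and each array or pair left out. In simulated data for the 24 h effect on 8109 genes, 20% of 50 genes changed by 0.5 on the log2 scale were recovered, 84% at 1, 90% at 1.5 and 100% at 2. The simulated noise was independent between genes and arrays, without the shared movement of replicate numbers or an array that stood apart. Recovery in the real data may therefore differ.

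Genes are named by a rule: the 30 largest changes each way with at least 4 of 5 pairs in that direction, up to 6 members of each list by p, cell type markers, those that differ between the times, 3 on each side of the threshold and 10 with the smallest error relative to the change. Phgdh, Ccne1, Gfra1, Cck, Ccng2 and the motif searches fall outside it and were chosen after values were seen. The comparison, the 39 gene lists and the 12 marker lists were chosen with earlier results of these data known. Lists share members, among them Ptprz1, Slc1a3, Vgf, Scg2, Bdnf, Rgs2 and Rgs4, and such a gene is counted in each. Some genes that the rule names are not reported here. Promoter windows are from RefSeq, and 6691 named genes had one.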

Additional observations from a re-analysis of the deposited data

Results flagged for a closer look

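Of 100 groups of 5 arrays examined, 9 held an array whose gap to its nearest neighbour took more than 0.71 of the group's range, for ratios on the log2 scale; chance marks about 1 in 20 groups. All 9 were arrays of replicate 5. In coculture, replicate 5 was the highest for the SD of expressed probe sets (gap 0.778 of the range, SD 0.773), for Pdgfra (gap 0.713, ratio 4.53), Olig1 (gap 0.785, ratio 4.12), Pclaf (gap 0.786, ratio 3.37) and Epas1 (gap 0.747, ratio 4.21). It was the lowest for Kcna4 (gap 0.805, ratio 0.319) and Lpl (gap 0.71, ratio 1.11). In control arrays, replicate 5 was the lowest for Pcdh10 (gap 0.73, ratio 1) and the highest for Fgfr3 (gap 0.725, ratio 1.24).

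For 4 genes the change at 24 h differed from that at 96 h by the test of the difference itself (limma, Benjamini-Hochberg). The change at 24 h minus that at 96 h was 2.37 for Lpl, 1.28 for Ak4, 1.11 for Snx18 and -0.88 for Garin5a on the log2 scale.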

How the results depend on the processing

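The count of 851 named genes past the threshold depended on the fit. The replicate block gave 3876 genes, a random replicate block 3826, the arrays at 24 h alone 473 and those with the replicate block 3647. All 851 genes were called again in the 3 fits with a block, and all 208 named genes past the threshold kept their call. A floor on low ratios gave 1327, array weights 4458, and the hybridisation covariate with the replicate block 44, a fit that separates signal and coculture poorly. The covariate alone gave 939 genes but turned the balance to 559 rises and 380 falls, against 225 and 626, and equal medians gave 435 and 801. Cyclic loess, the first probe set of each gene, a robust prior, a minimum of 1.5-fold and a single direction over probe sets gave 586 to 838. Leaving out 1 array gave 376 to 1879 genes, and leaving out both arrays of replicate 1, 2, 3, 4 or 5 gave 353, 357, 287, 300 and 1175.

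Of 31042 probe sets 1026 passed. The replicate block gave 8679, a random block 7788, the arrays at 24 h alone 637 and with the block 8132. The covariate gave 1644, the covariate with the block 17, and array weights 9887. With equal medians 552 rose and 617 fell, against 375 and 651. Leaving out arrays gave 508 to 2307, and leaving out both arrays of replicates 1 to 5 451, 441, 370, 382 and 1501.

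The 4 genes that differed between the times became 871 with the replicate block, 472 with a random block, 83 with the covariate, 11 with covariate and block, 35 with equal medians, 44 after loess, 9 with the floor and 1277 with array weights. Leaving out 1 array gave 1 to 23, and both arrays of replicates 1 to 5 gave 1, 1, 2, 1 and 16. The cause of these moves was not tested.

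Of the 208 named genes, 39 lost their call with the covariate, 46 after loess, 54 with the arrays at 24 h alone and 176 with covariate and block, where Stat3 reversed (0.014). Leaving out 1 array cost between 1 call (control replicate 5) and 69 (control replicate 3), with 47 without cocultured replicate 5, and leaving out both arrays of a number cost between 15 (replicate 5) and 86 (replicate 3). The first probe set alone reversed Dlg2 (0.092), Eif3m (-0.017) and Etv5 (0.075). Of 50 list medians 38 moved with the hybridisation covariate, 36 with equal medians and 20 after loess. Without cocultured replicate 5, 23 moved, and with the replicate block 0 did. A median counted as moved when it changed by more than the SD of its 5 pair differences. The hybridisation signal and the median of all genes had a paired exact p of 0.0625, the smallest that 5 pairs allow.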
